A study of Mus musculus with 12 samples.

Results

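The Hox and Cdx genes encode homeodomain transcription factors that give cells of the embryo their position along the body axis. They were taken as every gene whose symbol is Hoxa, Hoxb, Hoxc or Hoxd with a number, together with Cdx1, Cdx2 and Cdx4, and read in whole mouse yolk sac. Of 42 such symbols in RefSeq, 36 had a probe set of their own on the Affymetrix Mouse Genome 430 2.0 array, among 18193 genes in all. They comprised 9 genes of the Hoxa cluster, 9 of Hoxb, 7 of Hoxc, 8 of Hoxd and the 3 Cdx genes. Hoxb8 and Hoxd4 lay only on probe sets shared with Hoxb7 or Hoxd3, and the others were not analysed here. Where a gene had several probe sets, the brightest over the 12 arrays was used, so brightness chose the probe set and no difference between groups entered the choice.

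The yolk sac is the extraembryonic membrane that nourishes the early embryo and makes its earliest blood and vessels. The 4 groups of 3 arrays were Norrin and wild type at embryonic day 8.5 (E8.5), and Norrin and wild type at embryonic day 10.5 (E10.5). The Norrin groups were Z/Norrin mice, in which Norrin, a secreted ligand of the receptor Frizzled4 that acts through beta-catenin, was made outside its normal sites from a conditional over-expression allele. Every array in the 4 groups measured RNA pooled from 3 to 5 yolk sacs of mixed gender on a mixed C57Bl6/129 background. The Cre driver, and with it the cells that made Norrin, was not given in the sources used here, nor was any batch. The pools are the replicates, so the p-values measure the spread between pools.

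Hox genes lie in 4 clusters and are numbered by paralog group in the order in which they stand along the chromosome. Within a cluster, low-numbered genes are generally switched on earlier and more anteriorly than high-numbered ones, a rule called collinearity. Cdx factors act upstream of Hox genes in the posterior embryo, are themselves targets of Wnt, retinoic acid and FGF signals, and in zebrafish and in mouse embryonic stem cell cultures are needed for blood formation. On mouse build GRCm38.p6, the member genes of the Hoxa cluster span chromosome 6 from 52162417 to 52260880 and those of Hoxb chromosome 11 from 96194316 to 96368254. Those of Hoxc span chromosome 15 from 102921131 to 103036856 and those of Hoxd chromosome 2 from 74668225 to 74765142. Cdx2 lies on chromosome 5, Cdx1 on 18 and Cdx4 on X.

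Values are log2 expression, on which a difference of 1 is a 2-fold change. The array medians lay between 6.59 and 6.73 at E8.5 and between 6.97 and 7.01 at E10.5, so stage differences carry an offset that is given beside them. Defining yolk sac genes were high on every array: the visceral endoderm list averaged 13.07 to 13.32 in Norrin and 13.62 to 13.67 in wild type yolk sacs at E8.5, with no member below the lower quartile of gene levels. A few arrays stood apart. Both E8.5 arrays numbered 3 had hybridisation controls averaging 11.82 (Norrin) and 11.85 (wild type), against 10.29 to 10.69 on the other 4 E8.5 arrays. The second Norrin array at E10.5 had a trophoblast marker mean of 9.43 (6 of 10 listed genes measured), against 6.85 and 7.01 on the other Norrin arrays and 6.41 to 7.29 in wild type, and Tpbpa, a spongiotrophoblast gene, reached 11.90 there. Several results that rest on these arrays are also given with arrays left out.

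Most Hox and Cdx probe sets were dim. Of the 36 members, 28 had a mean below that of the median gene (7.68) and 17 were below the lower quartile (6.18). In bulk tissue, few cells with much RNA and many cells with little cannot be told apart. Dim here means a low probe set signal and not a small amount of RNA. Probes differ in brightness for the same amount of RNA. Hoxc8, a gene that patterns the thoracic skeleton, had a clear signal. It gave 10.61, 10.17 and 9.54 in Norrin and 10.67, 10.86 and 9.50 in wild type yolk sacs at E8.5. At E10.5 it gave 10.82, 10.75 and 11.36 in Norrin, all above the 10.39, 10.63 and 10.72 of wild type. The low E8.5 values are those of the arrays numbered 3, in both genotypes, the same arrays on which the hybridisation controls were high.

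**Figure D1:**
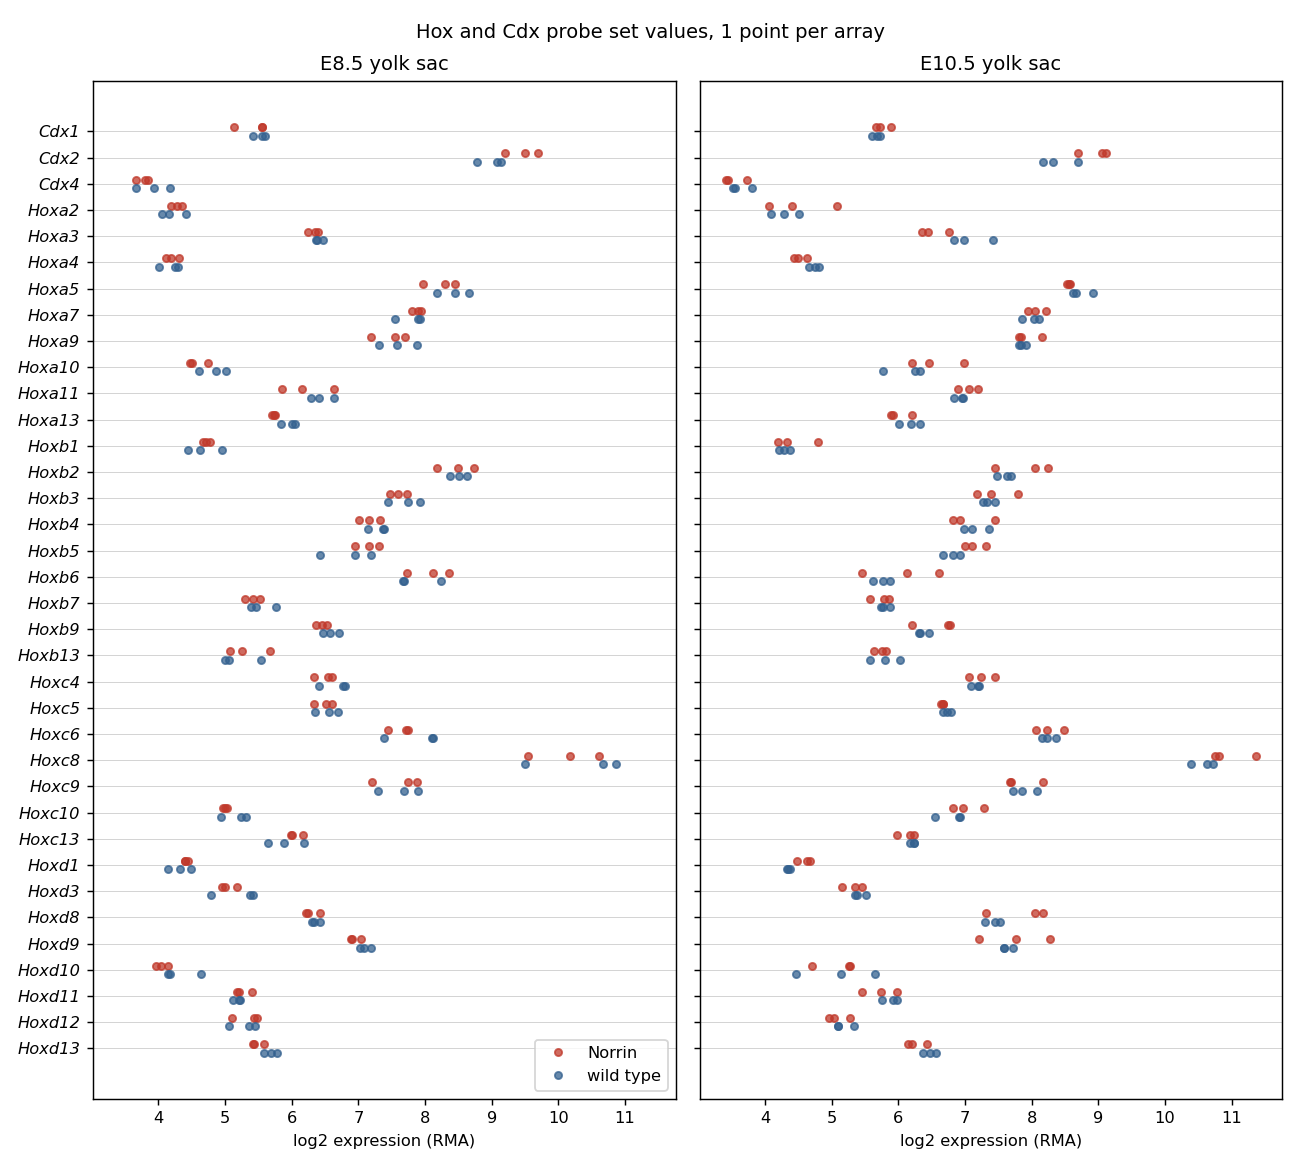
Log2 expression (x axis) of all 36 Hox and Cdx probe sets (rows) at E8.5 (left) and E10.5 (right), 1 point per array, Norrin and wild type in separate colours. The genotypes overlap for most members, and 28 of the 36 members average below the median gene level of 7.68.

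Other members named for a high mean within their cluster showed small differences among the groups on the probe sets used. Hoxa5, needed for lung and airway formation, averaged 8.24 ± 0.25 in Norrin and 8.43 ± 0.24 in wild type yolk sacs at E8.5, and 8.55 ± 0.03 in Norrin and 8.74 ± 0.16 in wild type at E10.5 (SD, n = 3). Hoxa7 lay between 7.55 and 8.21 on all 12 arrays. Hoxa9, a regulator of blood stem cells, lay between 7.19 and 8.15. Hoxc6 lay between 7.39 and 8.48 and Hoxc9 between 7.20 and 8.17. Hoxb3 lay between 7.18 and 7.93 and Hoxb4, which promotes the expansion of blood stem cells, between 6.82 and 7.45. None of these 7 genes passed the threshold for Norrin at either stage. Between the stages Hoxc6 alone among them passed in the deposited values, in Norrin, and it did not pass with each array centred on its median or with all arrays quantile-normalized together. Under those scalings Hoxb3 passed as lower at E10.5 in both genotypes, by -0.44 in Norrin and -0.64 in wild type with centring. Hoxb4 did so with joint quantiles. A dimmer Hoxb3 probe set went the other way in the deposited values, by 0.70 in Norrin and 0.27 in wild type. Dimmer probe sets of Hoxa5, Hoxa9 and Hoxb4 had larger stage differences than the probe sets used, and their values are given below.

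Among the Cdx genes the largest Norrin effects were those of Cdx2, the factor of trophoblast and of the posterior embryo. At E8.5 it gave 9.50, 9.69 and 9.20 in Norrin yolk sacs, against 9.07, 9.14 and 8.78 in wild type. At E10.5 it gave 9.12, 8.70 and 9.06 in Norrin, against 8.69, 8.32 and 8.17 in wild type. Every Norrin array was above every wild type array of its stage, although the lowest Norrin and the highest wild type array at E10.5 differed only in the second decimal. The difference was 0.47 ± 0.18 (log2, SE) at E8.5, a 1.38-fold level with an adjusted p of 0.650 by limma. At E10.5 it was 0.57 ± 0.18, or 1.48-fold, with an adjusted p of 0.123 by limma, so neither passed the threshold of 0.05. The labels do not say what a replicate number shares, and a pairing of the pools by number was inferred from these same data. With the number taken as a block the adjusted p from limma was 0.0835 at E8.5. At E10.5 it was 0.0114, past the threshold.

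A dimmer Cdx2 probe set moved the same way, by 0.48 at E8.5 and 0.33 at E10.5. At E10.5 its genotypes overlapped, with 6.73, 6.20 and 6.31 in Norrin and 6.39, 5.74 and 6.13 in wild type. On the second Norrin array at E10.5, where the trophoblast markers averaged 9.43, both probe sets were at their lowest of the 3 Norrin arrays. On the second Norrin array at E8.5 these markers averaged 7.66, against 6.09 and 6.41. There the probe set used was at its highest of the 3 Norrin arrays and the dimmer probe set at its lowest. Without the second Norrin array at E10.5 the E10.5 effect of the probe set used was 0.70, with an adjusted p of 0.0860 by limma. Quantile normalization of all arrays together gave 0.61 and an adjusted p of 0.0471 by limma. Leaving out each array in turn kept the E10.5 effect between 0.46 and 0.72 and the E8.5 effect between 0.35 and 0.60.

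Cdx1, a target of retinoic acid and Wnt signals in the posterior embryo, and the X-linked Cdx4 showed no such separation. Cdx1 averaged 5.42 ± 0.24 in Norrin and 5.52 ± 0.10 in wild type yolk sacs at E8.5, and 5.76 ± 0.12 in Norrin and 5.67 ± 0.06 in wild type at E10.5 (SD, n = 3). The 95% interval of its Norrin effect was -0.39 to 0.18 at the earlier and -0.20 to 0.37 at the later stage. Cdx4 averaged 3.77 ± 0.10 in Norrin and 3.92 ± 0.26 in wild type at E8.5, and 3.53 ± 0.18 in Norrin and 3.63 ± 0.16 in wild type at E10.5, at the bottom of the array's range. Its Norrin effect had intervals of -0.49 to 0.17 and of -0.42 to 0.23.

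**Figure D2:**
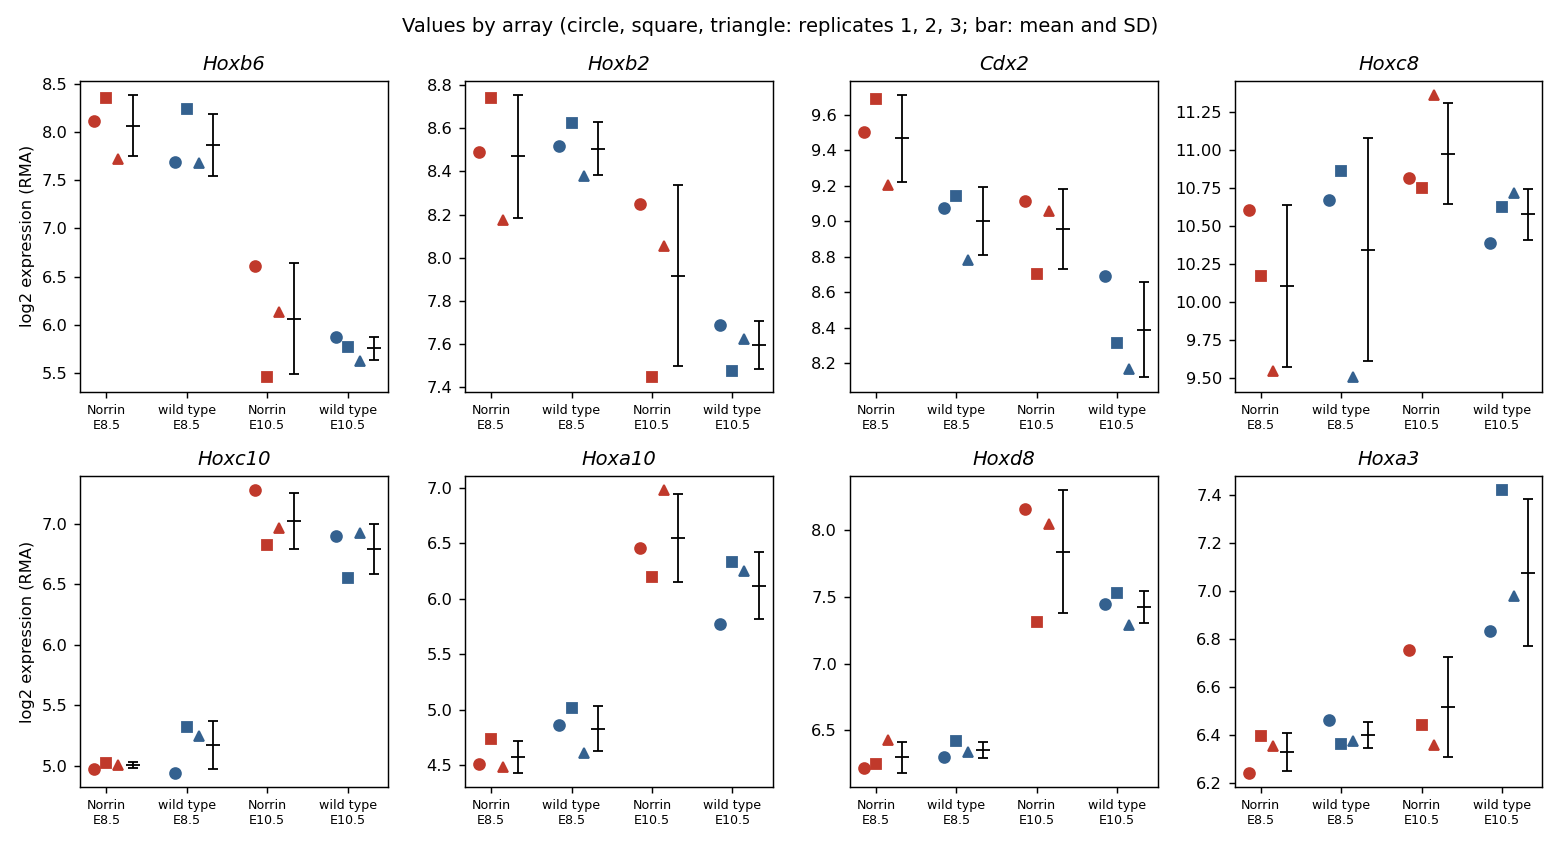
Log2 expression (y axis) of Hoxb6, Hoxb2, Cdx2, Hoxc8, Hoxc10, Hoxa10, Hoxd8 and Hoxa3 on each array, in the order Norrin and wild type at E8.5, then Norrin and wild type at E10.5. Circles, squares and triangles are replicates 1, 2 and 3 and the bars are the mean and SD; the Cdx2 Norrin points lie above the wild type points at both stages, and Hoxc8 is low in both E8.5 triangles.

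Since Norrin acts through beta-catenin and its TCF/LEF partners, and Cdx factors are upstream of Hox genes, the 250 bases before the start of the members' RefSeq transcripts (build GRCm38.p6) were read. RefSeq windows were found for 21 of the 36 members, 23 windows in all. Searched on both strands, the TCF/LEF core CTTTGA was in 3 of 23 member windows and in 13.8% of all 32851 promoter windows. The CDX core TTTATG was in 3 of 23 and in 10.8% of all. The HOX-PBX pattern TGATTNAT was in 2 of 23 and in 2.82% of all. No member window held more than 1 of these 3 motifs. These are matches of letters and not binding sites. The windows of 4 members described below are shown in the direction of transcription, with TCF/LEF cores in capitals: Cdx2, which had the largest Norrin effect, and Hoxa10, Hoxd8 and Hoxd13, which rose with stage under all 3 scalings.
Cdx2, chr5:147307250-147307499, minus strand: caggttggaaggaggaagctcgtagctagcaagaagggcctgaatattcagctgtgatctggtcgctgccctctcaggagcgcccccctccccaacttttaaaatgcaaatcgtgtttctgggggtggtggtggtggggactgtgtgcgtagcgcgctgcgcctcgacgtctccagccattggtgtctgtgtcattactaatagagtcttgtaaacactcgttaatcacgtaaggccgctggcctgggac
Hoxa10, chr6:52234940-52235189, minus strand: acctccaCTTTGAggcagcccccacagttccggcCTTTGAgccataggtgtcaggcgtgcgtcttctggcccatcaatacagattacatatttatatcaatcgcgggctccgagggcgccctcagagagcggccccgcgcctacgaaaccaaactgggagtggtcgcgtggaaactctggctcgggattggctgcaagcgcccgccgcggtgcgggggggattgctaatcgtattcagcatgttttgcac
Hoxd8, chr2:74704365-74704614, plus strand: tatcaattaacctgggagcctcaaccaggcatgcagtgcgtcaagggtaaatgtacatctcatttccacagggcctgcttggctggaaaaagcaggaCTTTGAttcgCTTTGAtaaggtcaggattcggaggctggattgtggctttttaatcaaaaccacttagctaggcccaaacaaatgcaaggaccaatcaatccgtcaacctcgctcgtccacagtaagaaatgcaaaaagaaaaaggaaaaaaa
Hoxd13, chr2:74667975-74668224, plus strand: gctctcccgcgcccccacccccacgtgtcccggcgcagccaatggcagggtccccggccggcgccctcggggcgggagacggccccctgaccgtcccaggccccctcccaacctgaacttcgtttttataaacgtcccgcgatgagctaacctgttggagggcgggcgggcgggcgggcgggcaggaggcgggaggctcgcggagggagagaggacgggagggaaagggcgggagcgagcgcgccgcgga
The Hoxd8 window holds 2 TCF/LEF cores, 153 and 143 bases before the start, and the Hoxa10 window holds 2, at 243 and 216. A further Hoxa10 window, at its other start, holds none. No searched letters are in the Cdx2 and Hoxd13 windows.

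Ectopic Norrin at E8.5 left no Hox or Cdx gene past the threshold. In the limma fit, 0 of 36 members had an adjusted p under 0.05, against 0.077% of all genes, and 1 of 36 (Cdx2) had an unadjusted p under 0.05, against 7.22% of all genes. With the replicate number as a block the count was again 0, against 1.41% of all genes, and 4 members had an unadjusted p under 0.05, against 21.4%. Of the 36 effects 12 were positive and 24 negative, with a median of -0.11 (log2). The median of all genes was -0.02 and that of genes below the median level was -0.09, so the members lay close to other dim genes. By cluster the medians were -0.11 for Hoxa, -0.04 for Hoxb, -0.16 for Hoxc and -0.10 for Hoxd. The groups did not overlap for 3 members, against 11.9% of all genes: Cdx2 was higher, Hoxa13 and Hoxd10 lower.

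Next in size to Cdx2 at E8.5 were Hoxb5 and Hoxd10. Hoxb5 gave 7.31, 7.16 and 6.95 in Norrin and 6.95, 7.18 and 6.42 in wild type yolk sacs, an overlap, with a difference of 0.29 ± 0.18 (SE) and an adjusted p of 0.741 by limma. Hoxd10, a gene of the hindlimb and lumbar cord, gave 4.05, 4.14 and 3.97 in Norrin and 4.15, 4.18 and 4.65 in wild type. Its difference was -0.27 ± 0.26 with an adjusted p of 0.808 by limma, at a level near the floor of the array. The 95% intervals of the 36 effects reached from -0.97 to 0.86, the widest being that of Hoxc8, whose low arrays were described above. The Hoxc8 effect was -0.24, and it ranged from -0.66 to 0.04 when single arrays were left out. With 3 pools per group, effects anywhere within a gene's interval remain compatible with its values.

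At E10.5 the same count was 0 of 36 in the limma fit, against 4.07% of all genes. An unadjusted p under 0.05 was reached by 4 members (Cdx2, Hoxa3, Hoxd1 and Hoxd8), against 14% of all genes. With the replicate number as a block, Cdx2 and Hoxa3 passed, 2 of 36, against 13.2% of all genes. Of the effects 20 were positive and 16 negative, with a median of 0.07, against -0.0042 for all genes. The groups did not overlap for 8 members, against 22.9% of all genes. Of these, Cdx2, Hoxb5, Hoxc8 and Hoxd1 were higher in Norrin and Hoxa3, Hoxa4, Hoxa5 and Hoxc5 were lower.

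Hoxa3, which patterns the pharyngeal arches, thymus and parathyroid, had the largest negative effect. It gave 6.75, 6.44 and 6.36 in Norrin and 6.83, 7.42 and 6.98 in wild type yolk sacs at E10.5. The difference of -0.56 ± 0.16 (SE) is 1.47-fold lower in Norrin, with an adjusted p of 0.0725 by limma and of 0.0436 by limma with the replicate block. Its 3 other probe sets gave -0.38, 0.0013 and -0.10, so the size depends on the probe set read. At E8.5 the difference was -0.07 ± 0.16.

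Hoxa10, a posterior gene active in the limbs and the uterus, was the third in size at E10.5. It gave 6.46, 6.20 and 6.98 in Norrin and 5.77, 6.33 and 6.25 in wild type yolk sacs, an overlap, with a difference of 0.43 ± 0.21 (SE) and an adjusted p of 0.390 by limma. A dimmer Hoxa10 probe set differed by 0.02, so the size depends on the probe set read. Hoxb5 gave 7.31, 7.003 and 7.10 in Norrin, above the 6.92, 6.67 and 6.82 of wild type, with a difference of 0.34 ± 0.18 and an adjusted p of 0.483 by limma. Hoxb5 thus had a positive difference at both stages, with no adjusted p under the threshold. So did Cdx2, Hoxa2, Hoxa7, Hoxb1, Hoxb6 and Hoxd1. The 95% intervals of the 36 effects at E10.5 reached from -0.90 to 1.14, again widest for Hoxc8.

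**Figure D3:**
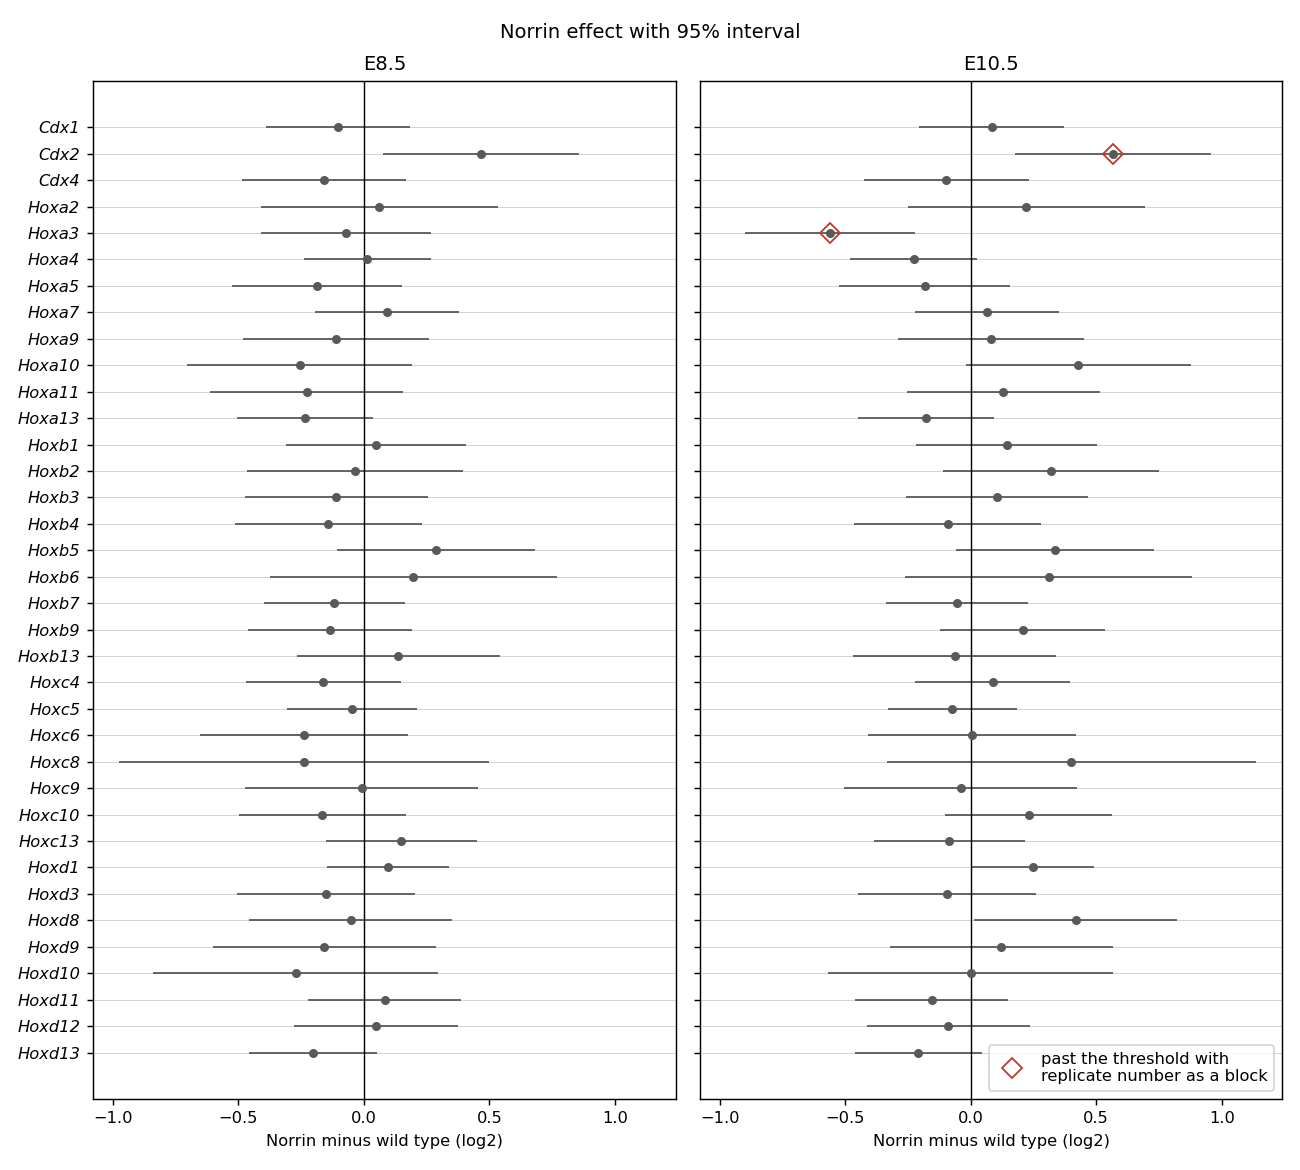
Norrin minus wild type (log2, x axis) for each of the 36 members (rows) at E8.5 and E10.5, points with 95% intervals from the limma fit over 12 arrays. Open diamonds mark Cdx2 and Hoxa3, the members past the threshold at E10.5 with the replicate number as a block.

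The Norrin arrays at E10.5 differed among themselves across the members. Set against the wild type mean of each gene, the median over the 36 members was 0.22, -0.15 and 0.01 on the Norrin arrays numbered 1, 2 and 3, and 28, 9 and 19 members were above that mean. Array 2 held the lowest of the 3 Norrin values for 27 of 36 members (75%), against 37.8% of all genes. This is the array with the high trophoblast markers, and the part of those markers in the lower Hox values was not tested. Without it, Hoxd8 passed the threshold at 0.68 ± 0.13 (SE), with an adjusted p of 0.0167 by limma, and with all arrays Hoxd8 was at 0.42 ± 0.19 and 0.333. Hoxd8 gave 8.16, 7.32 and 8.04 in Norrin and 7.45, 7.53 and 7.29 in wild type, so array 2 alone overlapped with wild type. A dimmer Hoxd8 probe set differed less, by 0.17 with all arrays. It gave 7.16, 6.66 and 6.93 in Norrin and 6.73, 6.92 and 6.58 in wild type, so the size depends on the probe set read. The decidua list was highest on Norrin array 3 (7.13, against 6.47 and 5.996 on the other Norrin arrays), where Hoxa10 was also highest, and its part was not tested.

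The Norrin effect was then compared between the stages. Of the 36 members 0 had an adjusted p under 0.05 for the difference of the effects (effect at E10.5 minus effect at E8.5) in the limma fit, against 0.0934% of all genes, and 0 with the replicate block, against 2.07%. An unadjusted p under 0.05 was reached by 2 members, against 7.01% of all genes. These were Hoxa10, whose effect was 0.43 at E10.5 and -0.25 at E8.5, and Hoxa3, whose effect was -0.56 at E10.5 and -0.07 at E8.5. The adjusted p from limma was 0.655 for Hoxa10 and 0.701 for Hoxa3. A dimmer Hoxa10 probe set had Norrin effects of 0.02 at E10.5 and -0.01 at E8.5. For Cdx2 the difference was 0.10, with a 95% interval of -0.45 to 0.66.

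Between the stages Hoxc10, Hoxa10, Hoxd8 and Hoxd13 rose and Hoxb6, Hoxb2 and Cdx2 fell in both genotypes. Comparing E10.5 with E8.5, 13 of 36 members differed in Norrin yolk sacs, 10 higher and 3 lower, and 13 of 36 in wild type, again 10 higher and 3 lower. All genes gave 37.9% in Norrin (28.2% higher, 9.69% lower) and 32.5% in wild type (25.4% higher, 7.12% lower), so the share of members called was near that of the array. In both genotypes and the same direction 10 of the 36 members were called (27.8%), against 25% of all genes. These 10 are 76.9% of each members' list, and over all genes the shared calls are 65.9% of the Norrin list and 76.9% of the wild type list. Called in both were Hoxa10, Hoxc4, Hoxc10, Hoxd8, Hoxd10, Hoxd11 and Hoxd13, which rose, and Hoxb2, Hoxb6 and Cdx2, which fell.

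The deposited values appear to come from a separate normalization run for each stage, from shared values and array medians, and such a run cannot be told apart from stage. The split of higher and lower calls depends on the scaling. The median of all genes was 0.15 (Norrin) and 0.14 (wild type) in the deposited values, -0.14 in both genotypes with each array centred on its median, and -0.05 and -0.06 with all arrays quantile-normalized together. The members called in Norrin were then 7 higher and 7 lower with centring, and 8 and 8 with joint quantiles. In wild type they were 5 higher and 8 lower, and 6 and 8. Of all genes, centring called 14.8% higher and 27.5% lower in Norrin and 13.5% and 25.4% in wild type, and joint quantiles called 16.9% and 20.9% in Norrin and 16% and 20.1% in wild type. Over all genes, 74.4% of calls in Norrin and 78.1% in wild type were higher in the deposited values, 35.0% and 34.7% with centring, and 44.7% and 44.2% with joint quantiles. Only 7 of the 36 members passed in both genotypes with the same direction under all 3 scalings, against 13.9% of all genes. They were Hoxa10, Hoxc10, Hoxd8 and Hoxd13, which rose (9.34% of all genes), and Hoxb2, Hoxb6 and Cdx2, which fell (4.54%).

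Hoxc10, a gene of the lumbar region and hindlimb, had the largest rise among the probe sets used, 1 per gene. Dimmer probe sets of Hoxd8 and Hoxa9, given below, rose more in Norrin, and those of Hoxd8 and Hoxc5 rose more in wild type. Hoxc10 gave 7.28, 6.82 and 6.97 at E10.5 and 4.97, 5.03 and 5.01 at E8.5 in Norrin yolk sacs, and 6.90, 6.55 and 6.92 at E10.5 and 4.94, 5.32 and 5.24 at E8.5 in wild type. The stages were far apart and the genotypes overlapped. The difference was 2.02 ± 0.15 (SE) in Norrin and 1.62 ± 0.15 in wild type, or 4.06-fold and 3.08-fold, with adjusted p of 3.83e-06 and 1.93e-05 by limma. With centring it was 1.73 and 1.34.

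Hoxa10, whose promoter is shown above, gave 6.46, 6.20 and 6.98 at E10.5 and 4.51, 4.74 and 4.48 at E8.5 in Norrin yolk sacs. In wild type it gave 5.77, 6.33 and 6.25 at E10.5 and 4.87, 5.01 and 4.61 at E8.5. The difference was 1.97 ± 0.21 (SE) in Norrin and 1.29 ± 0.21 in wild type, with adjusted p of 2.99e-05 and 0.000634 by limma. A dimmer Hoxa10 probe set showed no such rise, with -0.06 in Norrin and -0.10 in wild type. The decidua list (7 of 8 genes measured), for the maternal tissue next to the yolk sac, averaged 5.996 to 7.13 at E10.5 and 5.58 to 6.06 at E8.5 in Norrin, with 3 genes called higher and 0 lower. In wild type it averaged 5.87 to 6.15 at E10.5 and 5.89 to 6.25 at E8.5, with 2 called higher and 2 lower. The median stage difference of its genes was 0.51 in Norrin and 0.38 in wild type, against 0.15 and 0.14 for all genes, and its part in the rise of Hoxa10 was not tested.

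Hoxd8 gave 8.16, 7.32 and 8.04 at E10.5 and 6.22, 6.25 and 6.43 at E8.5 in Norrin yolk sacs, and 7.45, 7.53 and 7.29 at E10.5 and 6.30, 6.42 and 6.34 at E8.5 in wild type. The difference was 1.54 ± 0.19 (SE) in Norrin and 1.07 ± 0.19 in wild type, with adjusted p of 7.79e-05 and 0.00108 by limma. The dimmer Hoxd8 probe set rose more, by 2.36 and 2.11. Hoxd13, the most posterior gene of its cluster and a digit gene, gave 6.21, 6.15 and 6.43 at E10.5 and 5.43, 5.58 and 5.43 at E8.5 in Norrin. In wild type it gave 6.47, 6.37 and 6.57 at E10.5 and 5.58, 5.77 and 5.70 at E8.5. It rose by 0.78 ± 0.12 in Norrin and by 0.79 ± 0.12 in wild type, with adjusted p of 0.000318 and 0.000377 by limma.

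Among the members that fell, Hoxb6, a gene of the lateral plate mesoderm, stood out. It gave 6.61, 5.45 and 6.13 at E10.5 and 8.12, 8.35 and 7.72 at E8.5 in Norrin yolk sacs. In wild type it gave 5.87, 5.77 and 5.62 at E10.5 and 7.69, 8.24 and 7.67 at E8.5. The difference was -1.999 ± 0.26 (SE) in Norrin and -2.11 ± 0.26 in wild type, a level 3.998-fold and 4.33-fold lower, with adjusted p of 0.000136 and 0.000121 by limma. Hoxb2, a hindbrain gene, averaged 7.92 ± 0.42 at E10.5 and 8.47 ± 0.28 at E8.5 in Norrin, and 7.60 ± 0.11 at E10.5 and 8.51 ± 0.12 at E8.5 in wild type (SD, n = 3). It fell by 0.55 in Norrin and by 0.91 in wild type, with adjusted p of 0.0442 and 0.00432 by limma. Without the second Norrin array at E10.5 the Norrin value was -0.32 with an adjusted p of 0.186 by limma.

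Cdx2, whose values are given above, fell by 0.51 in Norrin and by 0.61 in wild type, with adjusted p of 0.0419 and 0.0214 by limma. Without single arrays its adjusted p from limma reached 0.161 in Norrin and 0.0875 in wild type. Hoxa10, Hoxc10, Hoxd8, Hoxd13 and Hoxb6 passed in both genotypes whichever single array was left out. Without both E8.5 arrays numbered 3, 20 members passed in Norrin and 17 in wild type, against 13 in each with all arrays. Calls over all 18193 genes rose as well, to 7702 in Norrin and 6858 in wild type, from 6895 and 5915 with all arrays.

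**Figure D4:**
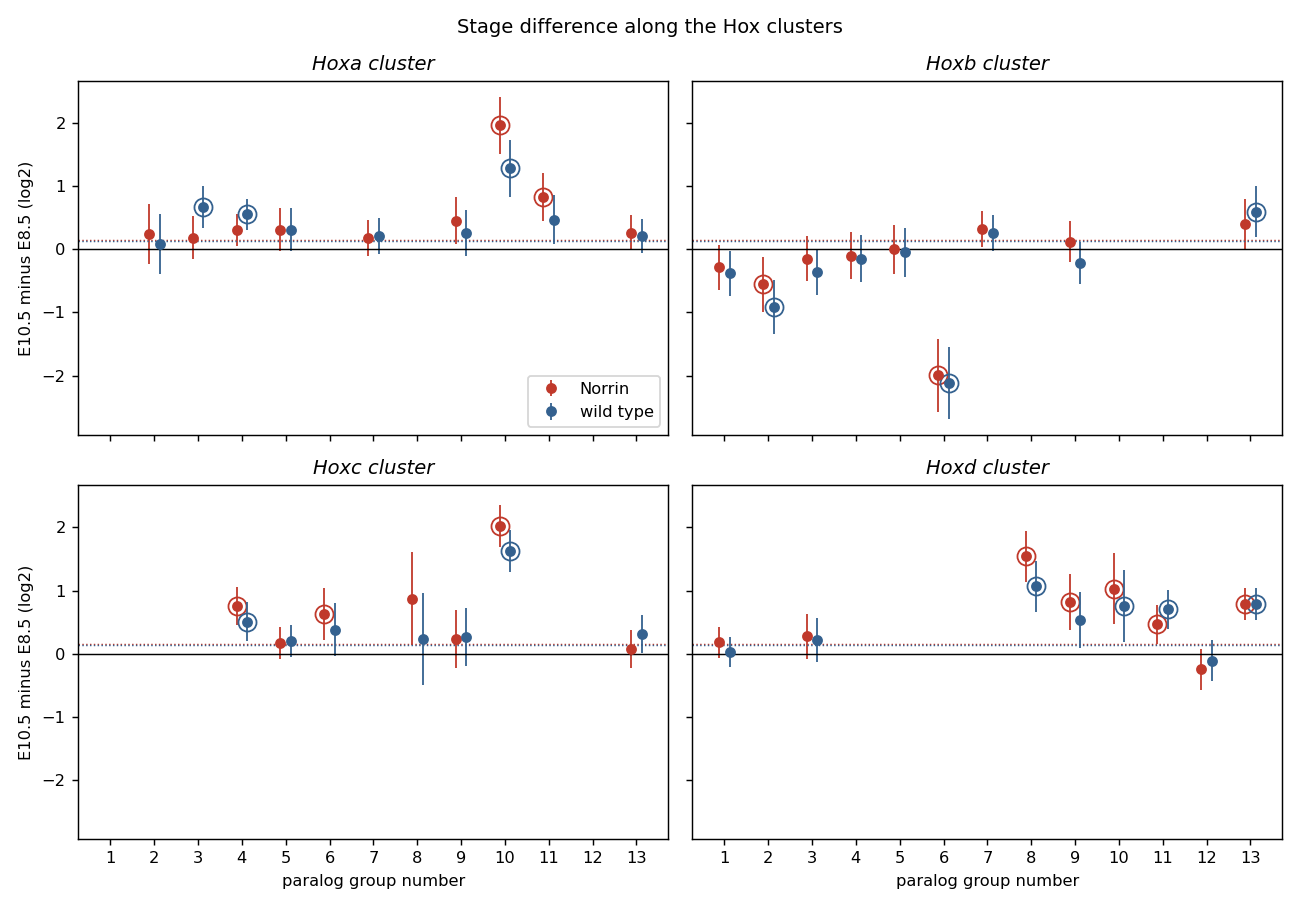
E10.5 minus E8.5 (log2, y axis) against paralog group number (x axis) in the Hoxa, Hoxb, Hoxc and Hoxd clusters, Norrin and wild type in separate colours, points with 95% intervals from limma on the deposited values. Most Hoxa, Hoxc and Hoxd points lie above 0, as do 62.4% (Norrin) and 62.1% (wild type) of all genes, while Hoxb6 and Hoxb2 lie below it in both genotypes.

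The stage differences were then read by cluster, as a description with no test between clusters. In the deposited values all 9 Hoxa and all 7 Hoxc genes had positive differences in both genotypes, and 7 of 8 Hoxd genes did. Of all genes 62.4% in Norrin and 62.1% in wild type were positive, and of genes below the median level, where most members lie, 72.9% and 67.2%. In Hoxb, 5 of 9 in Norrin and 7 of 9 in wild type were negative. The cluster medians in Norrin were 0.31 for Hoxa, -0.10 for Hoxb, 0.62 for Hoxc and 0.62 for Hoxd, and in wild type 0.31, -0.22, 0.31 and 0.62. With centring the Norrin medians were 0.02, -0.39, 0.33 and 0.33, and the wild type medians 0.03, -0.50, 0.03 and 0.33. Relative to the array median, then, Hoxa genes fell on either side of 0 (5 of 9 positive in both genotypes), while Hoxb genes were mostly negative (7 of 9 in Norrin, 8 of 9 in wild type), as were 60.9% and 62.2% of all genes.

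By position in the cluster, posterior genes (paralog groups 9 to 13) had positive differences in 13 of 14 in Norrin and 12 of 14 in wild type, of which 7 and 6 passed, none of them lower. Of all genes 62.4% and 62.1% were positive, and 28.2% and 25.4% were called higher. Most posterior genes were dim, and of the 9096 genes below the median level 72.9% in Norrin and 67.2% in wild type were positive. Of these 9096 genes, 3408 in Norrin and 2920 in wild type were called higher. With centring 9 of 14 were positive in each genotype, against 39.1% of all genes in Norrin and 37.8% in wild type. There were then 5 higher calls and 1 lower in Norrin, and 4 and 2 in wild type. Of all genes, centring called 14.8% higher and 27.5% lower in Norrin, and 13.5% and 25.4% in wild type. No test compared these genes with the others. Central genes (groups 4 to 8) had medians of 0.32 in Norrin and 0.24 in wild type, and anterior genes (groups 1 to 3) of 0.18 and 0.02. Across the 33 Hox genes, the stage difference and the paralog number correlated with r = 0.35 (rho = 0.44) in Norrin and r = 0.39 (rho = 0.49) in wild type. Genes of a cluster share arrays, neighbours and dim signals and are not independent, so this is a description. Within single clusters rho in Norrin was 0.52 for Hoxa, 0.72 for Hoxb, -0.11 for Hoxc and 0 for Hoxd, and in wild type it was 0.02, 0.60, 0.14 and 0.21.

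The remaining called members had smaller differences. In Norrin, Hoxd10 (1.03), Hoxa11 (0.83), Hoxd9 (0.81), Hoxc4 (0.75), Hoxc6 (0.62) and Hoxd11 (0.46) rose in the deposited values. The calls of Hoxd9, Hoxc6 and Hoxd11 were lost with both other scalings, at 0.52, 0.33 and 0.17 with centring and 0.48, 0.36 and 0.07 with joint quantiles. In wild type, Hoxd10 (0.76), Hoxd11 (0.70), Hoxa3 (0.68), Hoxb13 (0.60), Hoxa4 (0.56) and Hoxc4 (0.50) rose in the deposited values. The calls of Hoxd10, Hoxa3, Hoxb13 and Hoxc4 were lost with both other scalings, at 0.48, 0.40, 0.32 and 0.22 with centring and 0.55, 0.39, 0.28 and 0.20 with joint quantiles. That of Hoxa4 was lost with centring (0.27). Of the 23 members not called in each genotype, several had another probe set with a large difference. A dimmer Hoxa9 probe set differed by 2.09 in Norrin and 1.29 in wild type, against 0.46 and 0.26 on the probe set used. A dimmer Hoxa5 probe set gave 1.27 and 1.03, against 0.32 and 0.31, and a dimmer Hoxc5 probe set gave 1.89 and 1.85, against 0.17 and 0.20. A dimmer Hoxb4 probe set gave -0.75 and -0.81, against -0.10 and -0.15. The 12 members with several probe sets had 16 others, of which 12 had the same sign as the probe set used in wild type.

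The genes around the Hox system were read from lists. Of 9 TALE cofactors, which bind DNA together with Hox proteins, 8 were measured and 0 passed for Norrin at either stage, the largest effects being -0.41 for Meis2 at E8.5 and 0.13 for Meis3 at E10.5. Between stages 2 rose in both genotypes, Meis1 by 1.14 in Norrin and 1.01 in wild type and Pbx4 by 0.91 and 0.84, both named after their values were seen. Of 16 Polycomb, Trithorax and related chromatin regulators, all measured, 0 passed for Norrin, while 15 of 16 effects were positive at each stage, with median effects of 0.21 (E8.5) and 0.18 (E10.5). The largest were 0.40 for Kdm6b, a demethylase of H3K27, at E8.5 and 0.38 for Phc2 at E10.5. Their levels are high, and genes at or above the median level had median effects of 0.07 (E8.5) and 0.02 (E10.5).

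The retinoic acid list, whose signal activates anterior Hox genes, held the largest Norrin effect among these lists. Of 14 measured genes of 16, 1 was called higher at E8.5 and 2 at E10.5, and none was called lower. Of all genes 0.077% were called at E8.5 and 4.07% at E10.5. Positive effects, called or not, were seen for 6 of the 14 at E8.5 and 8 at E10.5. Cyp26a1, which degrades retinoic acid, gave 10.58, 11.12 and 11.20 in Norrin and 8.04, 9.07 and 8.17 in wild type yolk sacs at E8.5. At E10.5 it gave 11.33, 10.19 and 10.46 in Norrin and 7.49, 7.82 and 7.51 in wild type. The groups were far apart at both stages, with differences of 2.54 ± 0.31 (SE) and 3.05 ± 0.31 and adjusted p of 0.00981 and 0.000422 by limma. Rdh10, which makes retinaldehyde, rose by 1.70 at E10.5, with an adjusted p of 0.00682 by limma. With the replicate block Rarb also fell at E8.5 (-0.61, adjusted p 0.0461 by limma) and Dhrs3 at E10.5 (-0.41, 0.0263). The E8.5 call of Cyp26a1 was lost, at 0.108 by limma, without both arrays numbered 3, and also without wild type array 1 (0.0713) or 3 (0.0611) or Norrin array 2 (0.0915).

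Of 16 posterior axis and tail bud genes 15 were measured, 7 of them below the lower quartile in wild type at E10.5, and 0 passed for Norrin at either stage. Axin2, a feedback target of beta-catenin, gave 8.90, 8.83 and 8.29 in Norrin and 7.36, 7.55 and 7.89 in wild type yolk sacs at E8.5. The groups did not overlap, and the difference of 1.07 ± 0.18 (SE) had an adjusted p of 0.0701 by limma and of 0.0392 by limma with the replicate block. Without Norrin array 3 it was 1.26, with an adjusted p of 0.0202 by limma. At E10.5 the largest effect was that of Wnt5a, 0.60 with an adjusted p of 0.649 by limma, and with the replicate block Rspo3 passed (0.55, 0.0279 by limma). Between the stages Gdf11, whose product promotes the shift to posterior Hox expression, rose by 0.66 in Norrin and 0.60 in wild type, and Evx1, the neighbour of Hoxa13, fell by 0.65 and 0.89, both named after their values were seen. Of 12 blood progenitor genes 0 passed at E8.5, against 0.077% of all genes. At E10.5 Kit rose by 1.88 and Tal1 fell by 1.65, with 4.07% of all genes called. With the replicate block Mecom fell at E8.5 (1.41% of all genes called), and Tal1, Lmo2, Gfi1b and Mecom fell at E10.5 (13.2%). Of 7 erythroid (red cell) markers 5 were called lower at E10.5 without the block, with a median effect of -1.13. The part of red cells in these falls was not tested.

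Markers of embryo tissue that is rich in Hox RNA were read at both stages. The 14 measured neural markers averaged 6.29 to 6.34 in Norrin and 6.17 to 6.26 in wild type at E10.5, and 5.83 to 6.06 in Norrin and 5.87 to 6.33 in wild type at E8.5. The 8 somite and paraxial mesoderm markers averaged 5.36 to 5.62 in Norrin and 5.35 to 5.40 in wild type at E10.5, and 4.90 to 5.13 in Norrin and 5.01 to 5.43 in wild type at E8.5, with 5 of 8 below the lower quartile in each group. Of the neural markers 5 of 14 were below it in each group at E10.5 and 6 of 14 at E8.5. Between the stages 4 of 14 neural markers were called higher and 0 lower in Norrin, and 4 higher and 1 lower in wild type. Of the somite markers 4 of 8 were called higher in Norrin and 2 of 8 in wild type, and none lower. Of all genes 28.2% in Norrin and 25.4% in wild type were called higher, and 9.69% and 7.12% lower. The median stage differences of the markers were 0.27 (neural) and 0.40 (somite) in Norrin and 0.01 and 0.13 in wild type. All genes had medians of 0.15 and 0.14. Both marker medians were thus above that of all genes in Norrin, and neither was in wild type. The part of these markers in the stage differences was not tested. Extraembryonic mesoderm and mesenchyme markers averaged 11.38 to 11.51 in Norrin and 10.95 to 11.07 in wild type at E10.5, and 10.52 to 10.65 in Norrin and 10.22 to 10.46 in wild type at E8.5. They were thus higher at E10.5 than at E8.5, as Hoxc10, Hoxa10 and Hoxd8 were, and their part in those stage differences was not tested.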

How the data were processed

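RNA of 12 pools of mouse yolk sac was measured on 12 arrays. The authors deposited log2 values from RMA (per the submitters' processing notes, no version named); no source used here says whether the stages were normalized together. Any 2 arrays of a stage shared exactly the same value at 26 to 93 probe sets, any 2 arrays of different stages at 0, and the array medians differ by stage, as separate runs would give. The table held 45101 probe sets, of which 34945 had 1 gene, 932 several, 9160 were unnamed here and 64 were controls. Per gene the probe set with the highest mean over the 12 arrays was kept (18193 genes), which can pick a probe set that responds less than another. Gene positions and promoter sequences are those of RefSeq on GRCm38.p6, not of the probes.

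The fit was limma 3.58.1 in R 4.3.3 on all 12 arrays with 1 mean per group (8 residual and 4.17 prior degrees of freedom). Two-sided p-values were adjusted by Benjamini-Hochberg over the 18193 genes, with 0.05 as the threshold; every adjusted p in the text is from it unless the replicate block is named. The script was tested on simulated data. With arrays there is no read depth; their number limits the precision. Within a group the arrays correlated at r = 0.975 to 0.992 across genes.

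The labels number the replicates 1 to 3 but name no shared litter or day. The deviations of same-numbered Norrin and wild type arrays from their group means were correlated. The correlations were 0.73, 0.32 and 0.73 in the E8.5 pairs and 0.51, 0.21 and 0.22 in the E10.5 pairs. All were over 0.1, so the numbers were taken to pair the pools. Differently numbered arrays also passed 0.1, at 0.30 for Norrin 1 with wild type 2 at E8.5. At E10.5 Norrin 3 with wild type 2 gave 0.16. The pairing thus rests on the same values that the block was fitted to. Alternatives were another scaling, probe set rule, filter on low values, array weights, limma-trend, the replicate block, a fit per stage and leaving out each array. Members and lists were chosen with earlier results of these data known. Named members are the Cdx genes, those past the threshold for Norrin, the 3 largest Norrin effects per stage, the 3 members with the highest means per cluster and up to 6 called members per direction and stage contrast; of each list, up to 3 called genes or the largest effect.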

Additional observations from a re-analysis of the deposited data

How the results depend on the processing

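Counts of members past the threshold at E8.5, at E10.5 and for the difference of the Norrin effects were 0 each, and stayed 0 at E8.5 and for the difference in every alternative except array weights. Array weights, which give noisier arrays less say, called 9 members at E8.5, 4 at E10.5 and 5 for the difference. Of all genes they called 5147, 2316 and 2728 there, against 14, 741 and 17 without weights. For stage they called 26 members in Norrin and 23 in wild type. Of all genes they called 11639 and 10797 for stage, against 6895 and 5915 without weights. The cause was not tested. At E10.5 joint quantile normalization called 1 member (Cdx2) and the replicate block within the stage called 2 (Cdx2 and Hoxa3); this block changed no other Norrin call of a member. A block over all 12 arrays ended the stage calls of Hoxb2 in Norrin (-0.55, adjusted p 0.0534 by limma) and Hoxd10 in wild type (0.76, 0.0509), and the E8.5 call of Cyp26a1 (2.54, 0.0544), which a fit of the 6 arrays of E8.5 also ended (0.124). Over all genes the block called 257 at E8.5, 2400 at E10.5 and 376 for the difference. The filter on low values tested only 12 members and called 4 for stage in each genotype. Of the 10059 genes it kept, it called 3275 for stage in Norrin and 2572 in wild type. Leaving out both E8.5 arrays numbered 3, chosen after seeing the data, gave 20 for stage in Norrin, with 7702 of all genes called. Leaving out single arrays gave 10 to 17 for stage in Norrin and 9 to 16 for stage in wild type. Of all genes, these fits called 5242 to 7629 for stage in Norrin and 4311 to 6285 in wild type. They called 0 to 1 members at E10.5 (Hoxd8, without Norrin array 2), and 0 to 0 at E8.5 and for the difference. The stage call of Cdx2 was lost in Norrin without wild type E8.5 array 1, Norrin E8.5 array 1 or 2, wild type E10.5 array 2, or Norrin E10.5 array 2 or 3. In wild type it was lost without wild type E8.5 array 1 or 2 or wild type E10.5 array 2 or 3. Among the fits without 1 array the Norrin stage call of Hoxb2 held only without wild type E8.5 array 3, Norrin E8.5 array 3 or Norrin E10.5 array 1, and the wild type stage call of Hoxd10 only without wild type E8.5 array 3, Norrin E8.5 array 3, wild type E10.5 array 1 or Norrin E10.5 array 2. The filter on low values also ended the Norrin stage calls of Hoxb2 and Cdx2, and limma-trend that of Cdx2. The Norrin stage call of Hoxd9 was lost with centring (0.52) and joint quantiles (0.48). The E8.5 effect of Cdx1 ranged from -0.17 to 0.037 when single arrays were left out, and was positive without Norrin E8.5 array 1. Of the other values of named genes 744 kept direction and side of the threshold. Over all genes, fitting the 6 arrays of E8.5 by themselves called 0. Dim probe sets limit what could be seen: 17 members were below the lower quartile of gene levels.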

Other observations

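Some probe sets of the Hox clusters belong to no member. The probe set shared by Hoxb8 and Hoxb7 averaged 5.53 ± 0.22 at E10.5 and 6.32 ± 0.06 at E8.5 in Norrin yolk sacs, and 5.47 ± 0.10 at E10.5 and 6.27 ± 0.27 at E8.5 in wild type (SD, n = 3). Its stage difference of -0.79 in Norrin and -0.80 in wild type has the sign of Hoxb6 and Hoxb2 and is opposite to the 0.32 and 0.26 of the probe set for Hoxb7 alone. The 2 probe sets shared by Hoxd4 and Hoxd3 moved apart, by -0.49 and 0.63 in Norrin and by -0.68 and 0.62 in wild type. For Hoxd3os1, an antisense transcript of the Hoxd cluster, a probe set gave 7.30, 5.03 and 6.95 at E10.5 and 4.10, 4.08 and 4.40 at E8.5 in Norrin. In wild type it gave 5.60, 6.02 and 6.16 at E10.5 and 3.81, 3.68 and 4.53 at E8.5. The stages did not overlap in either genotype, and Norrin array 2 at E10.5 was again the lowest of its group. Another Hoxd3os1 probe set differed by 0.20 in Norrin and -0.01 in wild type. These values carry no test.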
